A study of Mus musculus with 27 samples.

Results

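Cytosolic ribosomal proteins were followed at the RNA level in mouse limb bud mesenchymal cells as these formed cartilage cells in culture. The members are probe sets that the array annotation gives to a single gene, where that gene's symbol is Rpl or Rps with a number, Rplp0, Rplp1, Rplp2 or Rpsa. Symbols of the S6 kinases and of marked pseudogenes were left out. The rule gave 70 probe sets of 44 genes among 36701 probe sets on 3 array types, with 49 on type A, 1 on type B and 20 on type C. Of the 44 genes, 21 belong to the small and 23 to the large subunit by symbol, and they lie on 18 chromosomes of the assembly GRCm38.p6.

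The cytosolic ribosome is made of ribosomal RNA and a fixed set of small subunit (Rps) and large subunit (Rpl) proteins, each needed in equal number with few exceptions. The acidic proteins Rplp1 and Rplp2 are bound by Rplp0 to form the stalk of the large subunit, which recruits elongation factors. Many ribosomal protein mRNAs start with a run of pyrimidines, through which the mTOR pathway controls their translation. Growing tissues make much of this protein set, and inherited faults in several members cause anaemia and skeletal defects.

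Each of 9 RNA samples was hybridised to array types A, B and C, which gave 27 arrays, with 3 RNA samples in each of 3 groups and replicate numbers 1, 3 and 4 in every group. The groups are multipotential mesenchymal cells, chondroprogenitors taken at day 1 and chondroblasts taken at day 3. The labels give the subridge region of the developing limb as the source of all cells, with strain and age not given in the sources used here, and the labels give every sample an estimated purity of 90 to 95% with fibroblasts as the contaminating cell. Nothing states that the replicates came from separate embryos or cultures, so p-values measure only how far these samples spread, and that spread may be technical. Values are signals, an intensity on a linear scale, rescaled to a trimmed mean of 500 on each array. A log2 difference is on the scale of log2(signal + 50), which understates changes of dim probe sets, and its error is the standard error (SE) from limma.

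Of 15 tested cartilage markers, 14 were higher at day 3 than in mesenchymal cells by limma's adjusted p under 0.05. Col2a1 and Sox5 stayed below the filter. The 10 tested limb mesenchyme markers went both ways. At day 1, 3 were called higher and 3 lower, and at day 3, 1 higher and 2 lower. Their summed signal was 15541 to 17559 at day 1 and 13660 to 16061.5 at day 3, against 15278 to 19609 in mesenchymal cells. Of all genes, 4.55% were called higher and 1.36% lower at day 1, and 8.67% and 4.80% at day 3, against mesenchymal cells. The summed signal of 7 erythroid markers, mainly globins, was 9366 to 117138 at day 1 and 6795 to 19946 at day 3, against 116641 to 254737 in mesenchymal cells. At day 3, 6 of the 7 passed the test as lower. The summed signal of 10 cycling-cell markers was 18332 to 20510 at day 1 and 14431 to 15484 at day 3, against 24386 to 28537 in mesenchymal cells. Of these 10 cycling-cell markers, 1 was called lower at day 1 and 5 at day 3, with 0 higher. Fibroblasts are the contaminating cell named by the labels, and the summed signal of 10 fibroblast markers was 8760 to 10471 at day 1 and 21282 to 25899 at day 3, against 6458 to 8113 in mesenchymal cells. Of these 10, 2 were called higher at day 1 and 6 at day 3, with 0 lower. Of 4 tested macrophage markers, 0 were called at day 1, and 2 were called higher and 0 lower at day 3. The summed signal of 5 endothelial markers was 1396 to 1671 at day 1 and 2446 to 2750 at day 3, against 2793 to 3144 in mesenchymal cells, with 0 called higher and 1 lower at day 1 and 1 higher and 2 lower at day 3. The control for 18S ribosomal RNA, averaged over array types, reached 27447, 33264 and 19946 in mesenchymal replicate 1, day 1 replicate 4 and day 3 replicate 4, and was at most 5631 in the other samples. The part of these markers in the results on ribosomal protein genes was not tested. That of the 18S signal was not tested beyond a refit without the 3 samples of highest 18S signal, given below. In bulk samples, fewer cells of a type and less RNA per cell cannot be told apart.

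A probe set was tested where its mean signal reached 200 in at least 1 group. Of the 70 member probe sets, 51 passed, and these stand for 37 of the 44 genes, 18 of the small and 19 of the large subunit. Each gene was read from 1 representative probe set, with array type A preferred to B and B to C, and the probe set of highest mean signal preferred within a type. Of the 37 genes, 33 reached 200 in every group. Rpl27, Rpl37 and Rpl38 reached it in mesenchymal cells only and Rpl10l at day 1 only, so these 4 passed through the group in which they were highest. The 7 genes not tested were Rpl32, Rpl35a, Rpl39, Rpl39l, Rps15, Rps15a and Rps6. Their own probe sets averaged between 44.1 (Rpl32) and 118.9 (Rps6) over all samples. Low values here need not mean little RNA of the gene. Probe sets shared with other genes, outside the rule, averaged up to 28406 for Rps6 and 20806 for Rps15a in mesenchymal cells. Such shared probe sets can also read other transcripts.

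Promoter windows of 6 members are shown here because 5 of them had among the larger differences of the brighter members at day 1 and the sixth, Rps7, had almost none. They were chosen after the values were seen. Each window runs from 40 bases before to 20 bases after the gene's start in RefSeq's GRCm38.p6 promoter table, 5′ to 3′ on the gene's strand. Capitals mark CTTTC, the core of a pyrimidine run, and CCGGAAG, a motif bound by ETS-family factors, each on either strand (GAAAG and CTTCCGG on the reverse).
Rpsa: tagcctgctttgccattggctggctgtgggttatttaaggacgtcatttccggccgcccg
Rplp2: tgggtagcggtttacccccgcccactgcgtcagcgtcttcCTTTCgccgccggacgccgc
Rps10: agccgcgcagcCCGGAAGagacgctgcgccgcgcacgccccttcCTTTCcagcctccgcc
Rps3a1: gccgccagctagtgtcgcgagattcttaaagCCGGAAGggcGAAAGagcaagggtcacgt
Rpl7a: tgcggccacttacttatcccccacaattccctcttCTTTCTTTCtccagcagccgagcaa
Rps7: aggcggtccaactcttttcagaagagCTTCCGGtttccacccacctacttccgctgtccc

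The windows lie at chr9:120127726-120127785 (plus strand, Rpsa), chr7:141447611-141447670 (plus, Rplp2), chr17:27635225-27635284 (minus, Rps10), chr3:86142649-86142708 (minus, Rps3a1), chr2:26910767-26910826 (plus, Rpl7a) and chr12:28635934-28635993 (minus, Rps7). The promoter table held 31 of the 37 tested genes, with 39 starts. CTTTC stood on either strand in 12 of these 39 windows (30.8%), against 14.8% of all 32851 windows of the same length. On the gene's own strand it stood in 9 of the 39 (23.1%), against 8.11% of all windows. CCGGAAG stood on either strand in 8 of 39 (20.5%), against 3.85% of all windows. The shown windows differ among themselves: Rps10 and Rps3a1 hold both motifs, Rplp2 and Rpl7a the first, Rps7 the second and Rpsa neither. In Rps3a1 the first motif stands only on the reverse strand, as GAAAG, so it is no pyrimidine run on the gene's strand. A match describes the letters in the window and is not a measured binding site.

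At day 1 most ribosomal protein genes read slightly below mesenchymal cells, but 1 gene passed the test. Of the 37 genes, 0 were called higher and 1, Rpsa, was called lower, against 4.55% of all 12214 genes called higher and 1.36% called lower. At an unadjusted p under 0.05, 0 members were higher, against 13.1% of all genes, and 9 were lower, against 8.56%. The 3 day 1 values all lay below the 3 mesenchymal values for 11 members, where 11.5% of all genes did so, and all lay above for 0, where 14.4% did. The log2 difference was negative for 29 of 37, and its median was -0.25, with a range from -0.83 to 0.17, beside a median of -0.02 over all genes tested. The low end is Rpl27, which is also among the 11. Rpl27, Rpl37 and Rpl38, all negative, were tested only through their mesenchymal means, and Rpl10l, positive, only through its day 1 mean. These counts and medians describe the tested members and carry no test of the list.

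**Figure D1:**
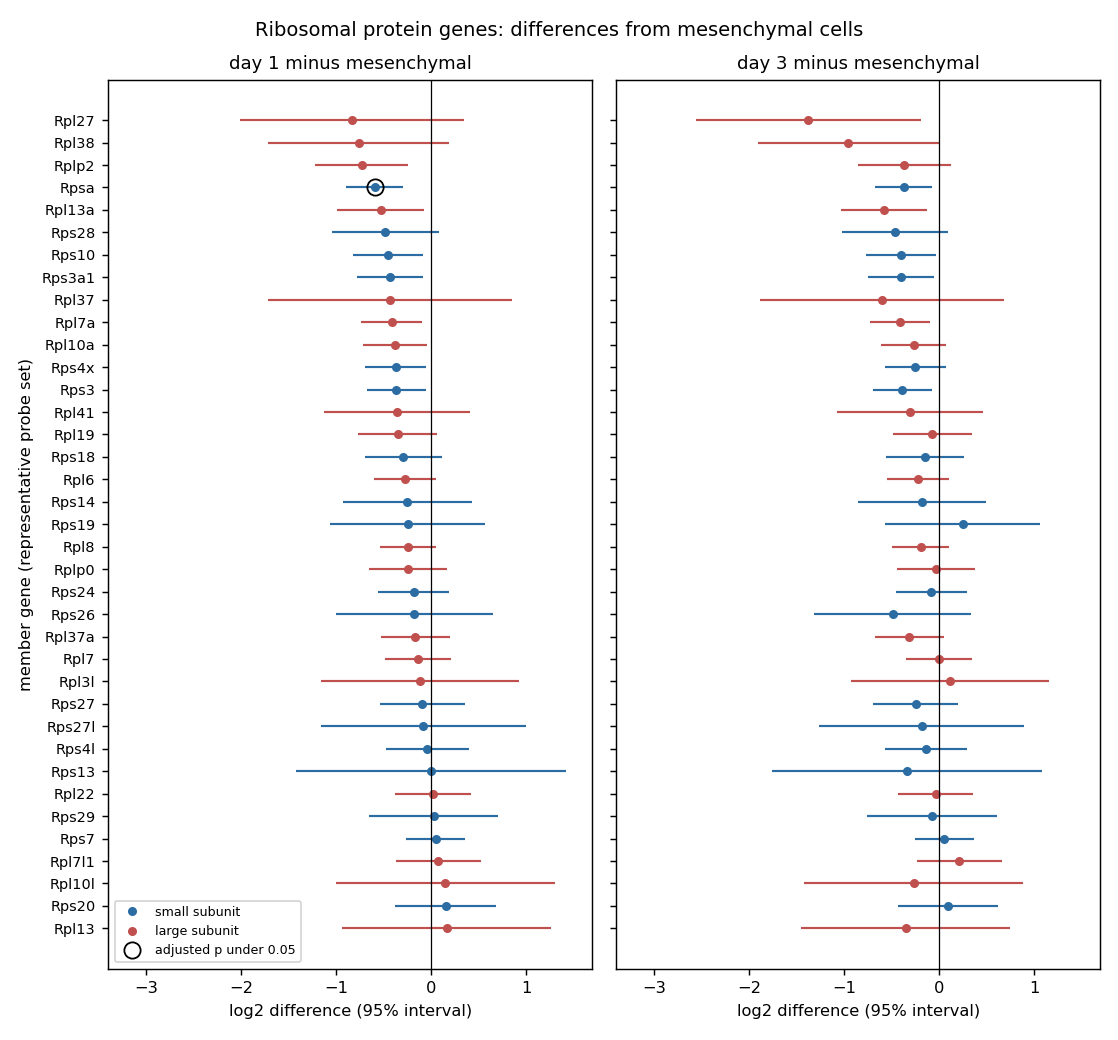
Log2 difference (x axis) of each of the 37 tested ribosomal protein genes (rows, sorted by the left panel) at day 1 and at day 3 against mesenchymal cells, with 95% intervals from limma. Most points lie left of 0 in both panels, most intervals cross 0, and the ringed point, Rpsa at day 1, is the only member past the threshold.

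Rpsa, a small subunit protein also known as a laminin receptor precursor, lies at chr9:120127766-120132369. Its signals were 9901, 8199.8 and 8715 in mesenchymal cells, 5798, 5690.5 and 6173 at day 1 and 6456, 6664 and 7519 at day 3. Each day 1 value lay below each day 3 value, and each day 3 value below each mesenchymal value, so no groups overlapped. The mean was 5887 ± 253 at day 1 and 8938 ± 872 in mesenchymal cells (SD, n = 3 each), a log2 difference of -0.59 (SE 0.14) with limma's adjusted p = 0.0292. At day 3 the mean was 6880 ± 564 (SD, n = 3), with log2 differences of 0.22 (SE 0.14) from day 1 (limma's adjusted p = 0.652) and -0.37 (SE 0.14) from mesenchymal cells (limma's adjusted p = 0.115). The day 1 call was lost under several other settings. With arrays scaled to a common median the log2 difference was -0.47 with limma's adjusted p = 0.198. Limma's adjusted p was 0.0516 with no filter, 0.0644 with the replicate block and 0.0699 without the 3 samples of highest 18S signal. With the scan day as a block the call was also lost, at a log2 difference of -0.63. On type A that value rests on day 1 replicate 1 against mesenchymal replicates 1 and 3 alone. Leaving out mesenchymal replicate 1, any of the 3 day 1 replicates, or day 3 replicate 1 or 3 also ended the call, with limma's adjusted p between 0.0524 and 0.119.

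The stalk genes differed among themselves. Rplp2, read on array type C, had signals of 22865, 21704 and 23281 in mesenchymal cells, 12732, 16212 and 12164 at day 1 and 14089.8, 23941 and 15970.0 at day 3. All day 1 values lay below all mesenchymal values, while day 3 replicate 3 lay above the mesenchymal samples. The log2 difference at day 1 against mesenchymal cells was -0.73 (SE 0.23) and missed the threshold, with limma's adjusted p = 0.0867. Rplp0, which anchors the stalk and is often used as a constant control gene, averaged 29529 ± 2763 at day 1 and 34536 ± 6717 at day 3, against 35219 ± 6771 in mesenchymal cells (SD, n = 3 each). On this representative probe set of Rplp0 the groups overlapped. The 95% intervals ran from -0.65 to 0.17 at day 1 and from -0.44 to 0.38 at day 3 against mesenchymal cells on the log2 scale. Rplp1 has no probe set of its own. Its probe set shared with other genes averaged 23917 at day 1 and 28620 at day 3, against 28003 in mesenchymal cells.

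Several bright members had day 1 and day 3 signals close to each other and below those of mesenchymal cells, without passing the threshold. Rps10, a small subunit protein mutated in human Diamond-Blackfan anaemia, had signals of 33081, 22301 and 25157 in mesenchymal cells, 20262, 17293 and 20562 at day 1 and 18643, 21209 and 20264 at day 3. Mesenchymal replicate 1 stood above the rest, and neither later group overlapped with mesenchymal cells. Its log2 difference at day 1 against mesenchymal cells was -0.45 (SE 0.17, limma's adjusted p = 0.171). Rpl7a, a large subunit protein, had signals of 22807, 19058 and 19837 in mesenchymal cells, 15261, 13667 and 17377 at day 1 and 15409.8, 15051 and 15734 at day 3. Again both later groups lay below every mesenchymal sample. Its log2 differences from mesenchymal cells were -0.42 at day 1 and -0.41 at day 3 (SE 0.15 each), with limma's adjusted p = 0.148 and 0.0999.

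Rps3, a protein at the mRNA entry of the small subunit that also acts in DNA repair, averaged 21666 ± 1372 at day 1 and 21371 ± 1535 at day 3, against 27947 ± 2061 in mesenchymal cells (SD, n = 3 each). Rps3a1, another small subunit protein, averaged 18527 ± 2411 at day 1 and 18809.5 ± 1515 at day 3, against 24989 ± 3145 in mesenchymal cells (SD, n = 3 each). Both genes had every day 1 and day 3 value below every mesenchymal value, and neither passed the threshold, with limma's adjusted p between 0.11 and 0.185. Rpl6, Rpl8, Rpl10a and Rps4x also had every day 1 value below every mesenchymal value, with log2 differences between -0.38 and -0.24.

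**Figure D2:**
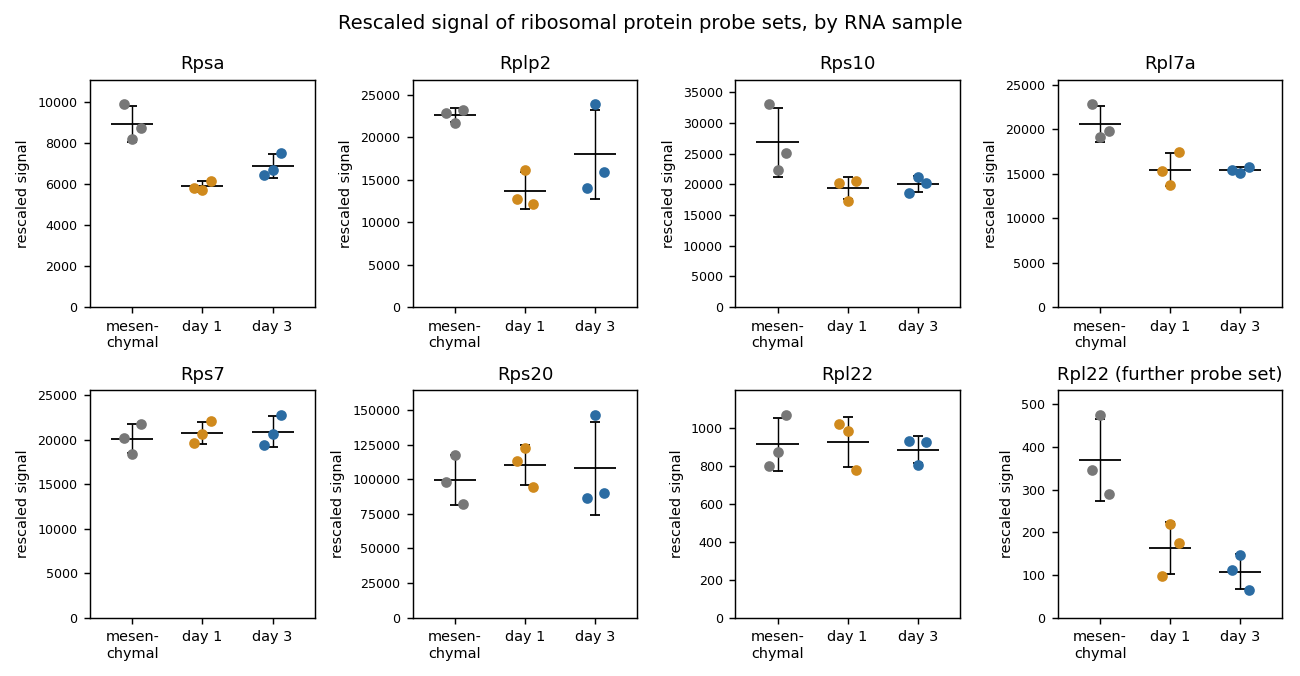
Rescaled signal (y axis, from 0) in the 3 RNA samples of each group for 7 ribosomal protein genes, with Rpl22 shown by its representative and by the further probe set that passed the threshold. Points are RNA samples, long bars are group means and whiskers are SD (n = 3). Rpsa, Rps10 and Rpl7a had both later groups below the mesenchymal samples, Rps7 and Rps20 had overlapping groups, and at day 3 against mesenchymal cells the log2 difference was -0.04 for the representative of Rpl22 and -1.42 for its further probe set.

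Other members had overlapping groups. Rps7, linked in mouse mutants to skeletal malformation, had signals of 20176, 18432 and 21714 in mesenchymal cells, 19564, 20640.1 and 22077 at day 1 and 19342, 20589 and 22780.0 at day 3. The groups overlapped throughout, and the 95% intervals of its log2 differences from mesenchymal cells ran from -0.26 to 0.36 at day 1 and from -0.25 to 0.37 at day 3. Rps20, read on array type C, averaged 109973 ± 14406 at day 1 and 107860.0 ± 33519 at day 3, against 99261 ± 17932 in mesenchymal cells (SD, n = 3 each), with overlapping groups. Other probe sets of Rps20 averaged only 79.4 on type A and 108 on type C over all samples and were not tested. Rpl7 averaged 17754 ± 577 at day 1 and 19539 ± 458 at day 3, against 19756 ± 3719 in mesenchymal cells (SD, n = 3 each). Its day 3 values all lay above its day 1 values, but the log2 difference of 0.14 (SE 0.16) did not pass, with limma's adjusted p = 0.847. The probe set that represents Rps24 carries the same source sequence identifier as that of Rpl7, so the gene it measures is uncertain.

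Between day 3 and day 1 no ribosomal protein gene passed the test. Of the 37 genes, 0 were called in either direction by limma, against 1.69% of all genes called higher and 0.630% called lower. At an unadjusted p under 0.05, 0 members were higher, against 6.94% of all genes, and 0 were lower, against 5.71%. The groups did not overlap for 2 members, Rpsa and Rpl7, both higher at day 3, where 10.5% of all genes were so placed, and for 0 that were lower, where 10.7% were. The median log2 difference was 0.02, with 21 positive and 16 negative, beside -0.05 over all genes, and the 95% interval lay within -1 and 1 for 27 of the 37. Leaving out day 3 replicate 4 turned this median to -0.04.

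At day 3 against mesenchymal cells, 0 of 37 members were called higher and 0 lower, against 8.67% and 4.80% of all genes. At an unadjusted p under 0.05, 0 were higher, against 15.7% of all genes, and 7 were lower, against 13.5%. All day 3 values lay below all mesenchymal values for 7 members, where 15.5% of all genes did so, and above for 0, where 16.6% did. The log2 difference was negative for 31 of 37, with a median of -0.25 and a range from -1.38 to 0.25, beside -0.05 over all genes. The low end is Rpl27, which is also among the 7 lower at limma's unadjusted p under 0.05. Rpl27, Rpl37 and Rpl38, all negative, were tested only through their mesenchymal means. The 95% interval lay within -1 and 1 for 24 of the 37 members, and the other 13 intervals include changes of more than 2-fold. These comparisons share samples: the day 1 and day 3 differences from mesenchymal cells use the same 3 mesenchymal samples.

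Each sample was then set against the mesenchymal mean of each gene. The median over the 37 members was 0.05, -0.12 and 0.04 in mesenchymal replicates 1, 3 and 4, -0.33, -0.27 and -0.24 in the day 1 replicates and -0.30, -0.28 and -0.15 in the day 3 replicates, all on the log2 scale. Every later sample lay below every mesenchymal sample, by a gap that was smallest between day 3 replicate 4 and mesenchymal replicate 3. The median of all 12214 genes stayed between -0.04 and 0.03 in the 9 samples. Small and large subunit genes gave similar medians at day 1 against mesenchymal cells, -0.21 over 18 genes and -0.28 over 19, and no test between them was made.

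**Figure D3:**
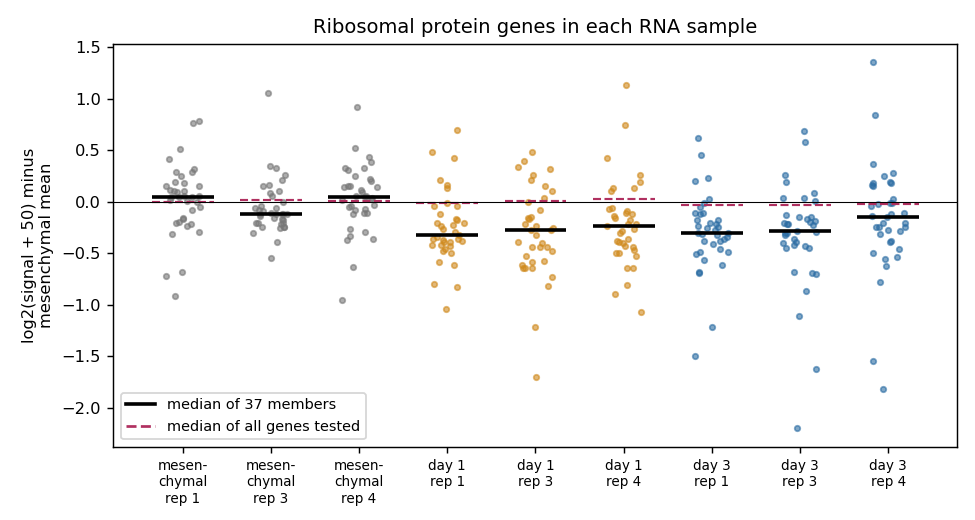
log2(signal + 50) of each of the 37 tested members minus that gene's mesenchymal mean (y axis) in the 9 RNA samples (x axis), with the median of the members as a black bar and the median of all 12214 genes tested as a dashed line. The members' median was -0.33 to -0.15 in the day 1 and day 3 samples and -0.12 to 0.05 in the mesenchymal samples.

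The size of this shift depended on how the arrays were made comparable. Quantile normalization brought the members' median at day 1 against mesenchymal cells to -0.10, with 24 of 37 genes negative, and at day 3 to -0.10, beside medians of -0.02 and -0.05 over all probe sets. Scaling each array to a common median gave -0.12 at both times, while it moved the median of all probe sets at day 1 from -0.05 to 0.08, a shift of over 0.1 in the same direction, so the members stood about as far below all probe sets as before. Within scan days, array type A had 1 batch with both groups, in which day 1 replicate 1 against mesenchymal replicates 1 and 3 gave a member median of -0.25 over 27 genes, 22 of them negative. Type C had 1 batch in which the 3 day 1 samples against mesenchymal replicate 3 gave -0.14 over 9 genes, and the 3 day 3 samples against it gave -0.21. Type A had no scan day with both day 3 and mesenchymal arrays. Without the 3 samples of highest 18S signal the medians against mesenchymal cells were -0.26 at day 1 and -0.27 at day 3.

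Brighter members had the smaller median spread within groups, though the SE of bright and dim members overlapped. For the 23 members with a mean signal of 2000 or more, a bound set after the signals were seen, the median SD within groups was 0.19 on the log2 scale, against 0.51 for the 14 dimmer members and 0.24 for the 1274 genes as bright. The brighter members had a median log2 difference of -0.35 at day 1 against mesenchymal cells, with 21 of 23 negative, beside 0.05 over those 1274 genes. At day 3 against mesenchymal cells it was -0.27, with 19 of 23 negative, beside -0.0042 over genes as bright. The dimmer members had medians of -0.06 at day 1 and -0.21 at day 3. Bright and dim describe the representative probe set and not the gene. Rpl37 and Rpl13, dim here, averaged 25399 and 38926 in mesenchymal cells on probe sets shared with other genes.

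Rpl38, whose loss in mice disturbs axial skeleton patterning and the translation of Hox mRNAs, was among the dim members. Its representative probe set had signals of 398, 242 and 84.9 in mesenchymal cells, 124, 117 and 73.9 at day 1 and 62.0, 70.9 and 129 at day 3. Mesenchymal replicate 4 lay as low as the later samples, so the groups overlapped, and the log2 difference at day 3 against mesenchymal cells of -0.95 (SE 0.44) gave limma's adjusted p = 0.204. It was tested only through its mesenchymal mean, as was Rpl27. Rpl27 had signals of 237, 283 and 293 in mesenchymal cells, 190, 48.6 and 196 at day 1 and 246, 19.8 and 41.0 at day 3. Its day 1 values lay below all mesenchymal values, while day 3 replicate 1 lay among them. Rps19, mutated in Diamond-Blackfan anaemia, averaged 7752 ± 3746 at day 1 and 10912 ± 4444 at day 3, against 8852 ± 2972 in mesenchymal cells (SD, n = 3 each), with overlap in every comparison.

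For 10 of the 37 genes more than 1 probe set was tested, with 14 probe sets beside the representatives. Of these 14, 11 shared the representative's sign for day 1 minus mesenchymal, 9 for day 3 minus day 1 and 11 for day 3 minus mesenchymal. A further probe set of Rps13 read higher than in mesenchymal cells by 1.27 at day 1 and 1.08 at day 3 on the log2 scale (SE 0.51 each, limma's adjusted p = 0.189 and 0.203). It averaged 510 over all samples, above the 367 of the representative, which was preferred for its array type. The representative had a log2 difference of 0.0025 (SE 0.65) at day 1 and -0.34 (SE 0.65) at day 3 against mesenchymal cells. A further probe set of Rplp0, which reached the filter at day 3 only, read 1.33 higher there than in mesenchymal cells (SE 0.53, limma's adjusted p = 0.128). Rpl22, a large subunit protein that also binds RNA in lymphocyte development, was the 1 gene where a further probe set passed the threshold. That probe set had signals of 346, 476 and 289 in mesenchymal cells, 98.3, 219 and 174 at day 1 and 111, 147 and 65.8 at day 3. It reached the filter of 200 in mesenchymal cells only, so it was tested through the group in which it is high, and its call is no independent sign of a change. Both later groups lay below every mesenchymal value, and the log2 difference at day 3 against mesenchymal cells was -1.42 (SE 0.33) with limma's adjusted p = 0.0169. The brighter representative of Rpl22 averaged 885 ± 72.6 at day 3 and 913 ± 139 in mesenchymal cells (SD, n = 3 each), a log2 difference of -0.04 (SE 0.18) with limma's adjusted p = 0.931. Among probe sets, 6.54% of all tested were called higher and 4.03% lower in that comparison, against 0 and 1 of the 51 member probe sets. At day 3 against day 1, 0 of the 51 were called in either direction by limma, against 1.13% of all probe sets called higher and 0.484% called lower. There 0 of the 51 reached limma's unadjusted p under 0.05, beside 1356 higher and 1193 lower of all 23545 probe sets tested. Against mesenchymal cells that bound gave 1 higher and 11 lower of the 51 at day 1, beside 2471 and 1912 of all. At day 3 it gave 2 higher and 9 lower, beside 2910 and 2863 of all.

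Close copies and tissue-restricted forms were among the dimmer members, and the SE of the log2 difference was 0.49 to 0.54 for Rpl10l, Rpl3l and Rps27l but 0.20 for Rps4l and 0.21 for Rpl7l1. Rpl10l, a retrogene active in testis, averaged 238 ± 186 at day 1 and 145 ± 61.5 at day 3, against 179 ± 31.1 in mesenchymal cells (SD, n = 3 each). Rpl3l, the striated muscle form of Rpl3, averaged 225 ± 66.5 at day 1 and 289 ± 162 at day 3, against 247 ± 61.9 in mesenchymal cells (SD, n = 3 each). Rps27l, a p53 target, averaged 339 ± 128 at day 1 and 301 ± 34.7 at day 3, against 403 ± 275 in mesenchymal cells, while its parent Rps27 averaged 1037 ± 251 at day 1 and 912 ± 77.0 at day 3, against 1098 ± 192 in mesenchymal cells (SD, n = 3 each). Groups overlapped for all 4 genes in every comparison. Rpl7l1, a nucleolar relative of Rpl7, likewise overlapped, with 402 ± 67.9 at day 1 and 445 ± 19.4 at day 3, against 377 ± 41.4 in mesenchymal cells (SD, n = 3 each). Rps4l, which RefSeq lists as a transcribed pseudogene although its symbol has no such mark, averaged 1142 ± 315 at day 1 and 1039.5 ± 95.0 at day 3, against 1147 ± 60.0 in mesenchymal cells (SD, n = 3 each).

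Outside the rule, 52 probe sets name a ribosomal protein gene together with other genes, and 28 ribosomal protein genes, such as Rpl3, Rpl5, Rpl10, Rpl24 and Rps2, are found on such probe sets alone. Of these probe sets 45 were tested, and they share no probe set with the members, though they come from the same 9 samples and can read other transcripts. At day 1 against mesenchymal cells 44 of 45 had a negative log2 difference, with a median of -0.42, beside -0.05 over all probe sets. Of the 45, 0 were called higher and 2 lower, against 3.61% and 1.18% of all probe sets. The 2 were probe sets of Rpl27a (log2 difference -0.66, limma's adjusted p = 0.0250) and Rps25 (log2 difference -0.89, limma's adjusted p = 0.0479). At day 3 against mesenchymal cells 4 were called lower and 0 higher, against 4.03% and 6.54% of all probe sets, with a median of -0.30. Of the 4, the probe set of Rps12 reached the filter in mesenchymal cells only. Limma called 0 of the 45 at day 3 against day 1, beside 1.13% of all probe sets called higher and 0.484% lower, and the median was 0.11. Limma's unadjusted p under 0.05 gave 1 higher and 1 lower there, beside 1356 higher and 1193 lower of all 23545 probe sets tested.

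The rest of the translation machinery was read from lists. Their counts of calls stand beside the shares of all genes given above, 4.55% called higher and 1.36% lower at day 1 and 8.67% higher and 4.80% lower at day 3 against mesenchymal cells. At limma's unadjusted p under 0.05 the shares of all genes were 13.1% higher and 8.56% lower at day 1. Of 67 tested mitochondrial ribosomal protein genes, whose products form a separate ribosome, 0 were called in either direction at day 1 against mesenchymal cells, where 6 were higher and 4 lower at an unadjusted p under 0.05, and the median was 0.01. At day 3 against mesenchymal cells Mrpl17 was called higher and Mrpl9 lower. Of 52 tested ribosome assembly genes, 0 were called higher and 3 lower at day 1, and 0 higher and 7 lower at day 3, against mesenchymal cells. The 3 at day 1 were Npm1, a nucleolar chaperone, Gnl3, a nucleolar GTPase also called nucleostemin, and Emg1, a ribosomal RNA methyltransferase. Emg1 had signals of 1912, 1789 and 1337 at day 1 and 1457, 1445.5 and 1115.5 at day 3, against 2719.5, 2950.4 and 3129.8 in mesenchymal cells. No later value reached a mesenchymal one, and its log2 differences from mesenchymal cells were -0.80 at day 1 and -1.11 at day 3 (SE 0.18 each), with limma's adjusted p = 0.0226 and 0.00166. Fbl, the fibrillarin that methylates ribosomal RNA, was lower at day 3 than in mesenchymal cells by a log2 difference of -0.82 (SE 0.15, limma's adjusted p = 0.00349).

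Of 30 tested initiation factor genes, 0 were called higher and 2 lower at day 1, and 1 higher and 4 lower at day 3, against mesenchymal cells, beside the same 4.55% and 1.36% of all genes at day 1 and 8.67% and 4.80% at day 3. Eif4b, a cofactor of the helicase eIF4A and a substrate of S6 kinase, had log2 differences of -0.86 at day 1 and -1.05 at day 3 (SE 0.21 each), with limma's adjusted p = 0.0412 and 0.00767. Eif4a2, a form of that helicase, was the 1 called higher, with 5629, 3762 and 4974 at day 3 against 1736.5, 1958 and 2207 in mesenchymal cells. Of 16 tested elongation and associated factor genes, 0 were called at day 1 against mesenchymal cells. There limma's unadjusted p under 0.05 gave 1 higher and 6 lower, beside 13.1% and 8.56% of all genes. At day 3 against mesenchymal cells 0 of these 16 were called higher and 3 lower, which were Btf3, Nap1l1 and Etf1. These 3 are on the list as associated genes, and none of them is an elongation factor. Of the 21 tested S6 kinase and mTOR pathway genes, 2 were higher and 0 lower at day 1, and 2 were higher and 2 lower at day 3, against mesenchymal cells, so that the higher count at day 3 was near the 8.67% of all genes. Deptor, an inhibitor of mTOR, had 2066, 1745 and 2131 at day 1 against 449, 498 and 494 in mesenchymal cells, a log2 difference of 1.93 (SE 0.18, limma's adjusted p = 1.9e-05). Mtor itself was lower at day 3 than in mesenchymal cells by a log2 difference of -0.94 (SE 0.21, limma's adjusted p = 0.0126). Of 9 tested Myc family genes 0 were called in the 3 comparisons. At day 3 against mesenchymal cells limma's unadjusted p under 0.05 gave 2 lower and 0 higher, beside 13.5% and 15.7% of all genes. Mycn came nearest there with limma's adjusted p = 0.0636.

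**Figure D4:**
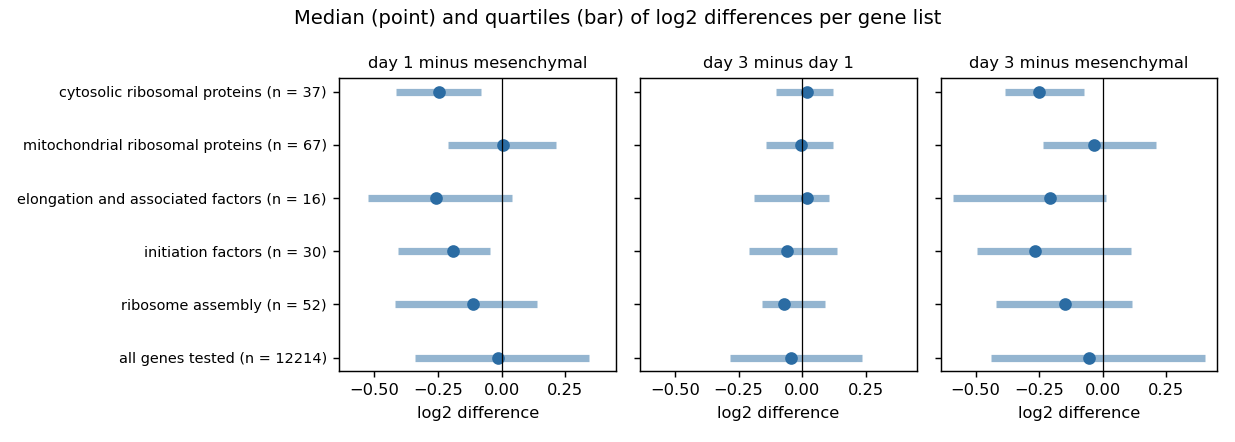
Median (point) and quartiles (bar) of the log2 difference (x axis) over the tested genes of each list (rows) in the 3 comparisons (panels). Cytosolic ribosomal proteins had medians of -0.25, 0.02 and -0.25, and mitochondrial ribosomal proteins stayed near 0.

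**Figure D5:**
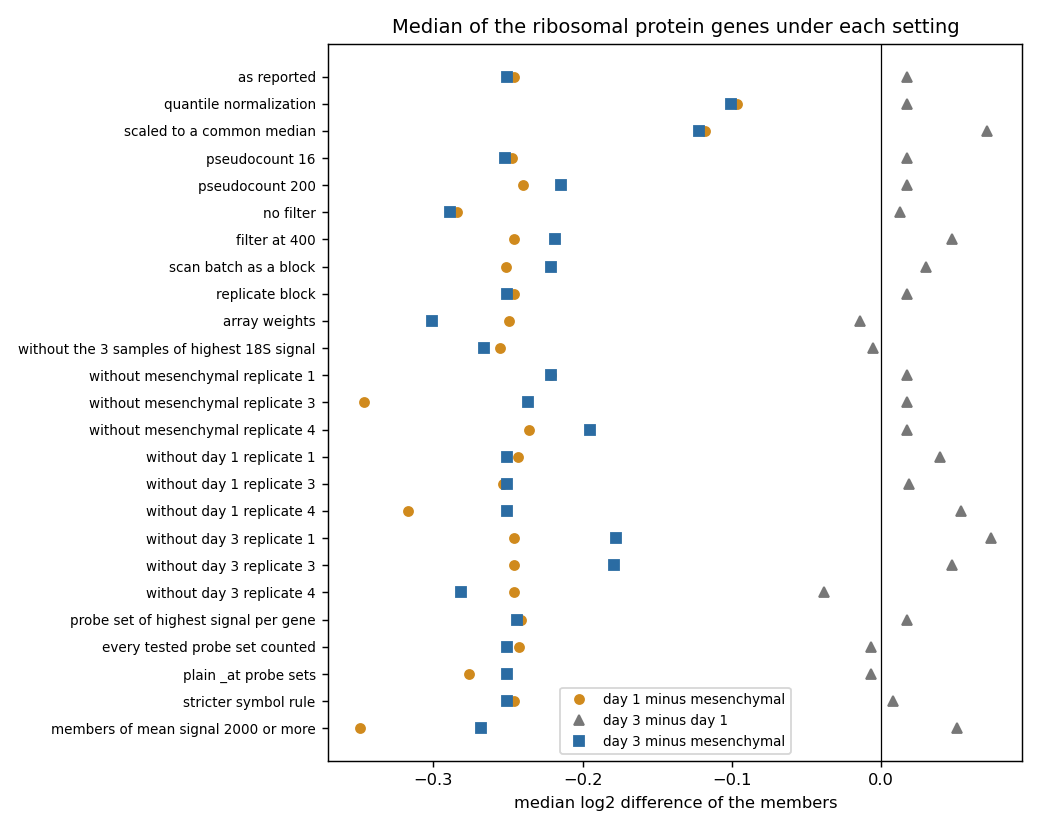
Median log2 difference (x axis) of the tested members in each comparison (symbols) under every setting tried (rows). The medians against mesenchymal cells stayed below 0 in every row, between -0.35 and -0.10, while that of day 3 against day 1 lay on both sides of 0.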

How the data were processed

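Gene expression was measured on Affymetrix mouse arrays MG_U74Av2, Bv2 and Cv2 (types A, B and C), 9 RNA samples per type. The deposited values are 1 intensity per probe set and array, the MAS5 signal on a linear scale per the submitters' processing notes, and the version of MAS5 is not given in the sources used here. Each array had a trimmed mean near 1501 as deposited. Groups and replicate numbers come from the sample titles.

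Signals were multiplied so that every array had a 2% trimmed mean of 500. Probe sets with a mean below 200 in every group were left out, and log2(signal + 50) of the remaining 23545 was fitted in R 4.3.3 with limma 3.58.1 (lmFit, eBayes with trend), 1 fit of all 9 samples per array type. Benjamini-Hochberg adjustment ran over all 23545, with a threshold of 0.05, and 12214 genes had a representative. The steps were tested on simulated data. Gene names come from the platform annotation, updated through the gene identifier to RefSeq's GRCm38.p6 table: of 36701 probe sets, 29131 had 1 gene, 724 several and 6846 none. Symbols ending in an added 1 (Rps3a1, Rpl7l1) were read as members.

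The members and lists were chosen with earlier results of these data known. Named genes are those past the threshold, the stalk genes, members tied to skeleton or blood, close copies, genes whose probe sets disagree and up to 3 per other list. Further members named for their values were chosen after these were seen. Scan days from the experiment records served as batches. Same-numbered day 3 and day 1 samples deviated together (r of 0.107, 0.126 and 0.251 over probe sets), against -0.1765 to 0.0813 for unlike numbers. Mesenchymal samples did not deviate together with later samples of the same number (r between -0.202 and 0.0617). With later samples of unlike number their r ran from -0.1524 to 0.2368. As this range reaches above 0.107 and 0.126, the values do not settle whether the numbers pair the day 1 and day 3 samples. The number of arrays limits precision.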

Additional observations from a re-analysis of the deposited data

How the results depend on the processing

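Results were recomputed under 23 planned settings and 1 added after seeing the data, the members of mean signal 2000 or more, which gave a median of -0.3492 at day 1 against mesenchymal cells. Leaving out samples kept the filter and representatives fixed. No member was called at day 3 against day 1 in any setting tried, nor higher at day 1. Calls lower at day 1 against mesenchymal cells were 1 as reported, 2 under quantile normalization (Rplp2 and Rpsa) and 0 with a common median, no filter, the scan batch as a block, the replicate block or without the 3 samples of highest 18S signal. Calls at day 3 against mesenchymal cells, 0 as reported, were 1 higher (Rps7) and 1 lower (Rpl13a) under quantile normalization, 3 lower with array weights (Rpl37a, Rpsa and Rpl38, the last tested only through its mesenchymal mean) and 1 lower with every tested probe set counted (Rpl22, by a probe set that reached the filter in mesenchymal cells only). In that comparison array weights called 4246 of all 23545 probe sets, both directions together, against 2489 as reported. The share of all genes called under quantile normalization is not given here. Leaving out 1 replicate gave 0 to 1 lower at day 1, and 0 to 1 at day 3 (Rpl38 without mesenchymal replicate 4, Rpl27 without day 3 replicate 1, both tested only through their mesenchymal means). The members' medians at day 1 and day 3 against mesenchymal cells were -0.0966 and -0.1004 under quantile normalization and -0.1176 and -0.122 with a common median. Leaving out 1 replicate moved them between -0.3467 and -0.2214 at day 1 and between -0.2814 and -0.1777 at day 3. It moved the day 3 against day 1 median between -0.038 and 0.0737.

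The probe sets called numbered 1128 for day 1 minus mesenchymal, 380 for day 3 minus day 1 and 2489 for day 3 minus mesenchymal. With array weights these were 2005, 1131 and 4246, and the scan batch as a block gave 683 and 1143 for the comparisons with mesenchymal cells. Leaving out 1 replicate gave 555 to 1243, 167 to 438 and 1476 to 2557, with fewer samples in the fit. The replicate block on the shared numbers left Rpsa at -0.59 with limma's adjusted p = 0.0644 and changed no other call of a member. Over the settings Rpsa at day 1 ranged from -0.65 to -0.47, with limma's adjusted p from 0.0136 to 0.198. Otherwise the cause of each move was not tested. On type B, day 3 and scan day cannot be told apart.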
